A study of Homo sapiens with 2 samples.

Results

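The autophagy machinery is described here as 38 human genes of 60664 listed, taken by symbol from a list that covers 7 steps, from the kinase complex that starts autophagy to the receptors that bring cargo to it. The cells were HEK293T, a long-established human cell line of embryonic kidney origin that carries DNA of an adenovirus and expresses the large T antigen of SV40. The samples form 1 group, wild-type and untreated, with 2 RNA-seq libraries called replicate 1 and replicate 2, from a study that mapped R-loops. There is no contrast between conditions, so the values are levels in these cells and their spread between the libraries. In replicate 2 the name of the line is spelled with 1 digit changed in its labels, and the spelling of its title was used.

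In macroautophagy, a double membrane grows around part of the cytoplasm, closes as an autophagosome and fuses with a lysosome, where the content is degraded. Kinase complexes start the process, lipid carriers feed the membrane, and enzymes related to those of ubiquitin transfer attach small ATG8 proteins to its lipids. Receptors that bind ATG8 proteins on one side and marked cargo on the other make the process selective.

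Total counts were 18011638 in replicate 1 and 18575058 in replicate 2, on build GRCh38. CPM is the count of a gene scaled to a fixed total of its library. Where a gene had 0 counts, its level may still be up to 0.167 CPM (replicate 1) or 0.162 CPM (replicate 2), for counting error only. Levels are given in TPM, in which counts are divided by the gene's merged exon length and then scaled to a fixed total. Values after ± are SDs over the libraries (n = 2), which may be technical, since the labels do not name separate cultures. In bulk RNA, fewer cells with a transcript and less of it per cell cannot be told apart. The cells carried 5 of 5 neuronal and mesenchymal markers reported for HEK293T, between 15.7 TPM for NEFL and 334 TPM for UCHL1. Of 8 kidney tubule and podocyte markers, 0 reached 1 CPM in both libraries, and UMOD, SLC12A3 and AQP2 had 0 counts. Of 5 fibroblast markers, 2 (COL1A1 and LUM) reached it, and COL1A2 and DCN had 0 counts.

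Transcripts of nearly the whole machinery were present. At 1 CPM or more in both libraries, 37 of 38 genes were detected, all but MAP1LC3A, against 65.9% of 19890 protein-coding genes. The genes had a median of 14.2 TPM, against 2.88 TPM over protein-coding genes and 8.52 TPM over the detected ones. Their log2 level lay 2.26 above the protein-coding median (between-library SD 0.0629). Above the protein-coding median stood 34 of the 38, and above the median of detected genes 27. Together they took 54744 counts in replicate 1 and 58178 in replicate 2, or 0.304% and 0.313% of each library. Without ATG10, whose count is uncertain, the shares were 0.198% and 0.193%. Levels ran from 0.373 TPM for MAP1LC3A to 419 TPM for ATG10, and 24 genes reached 10 TPM while 9 were under 5 TPM. The shares of all protein-coding genes at these levels were not computed. By merged length, the 4 genes above 50 TPM were ATG10, GABARAP, GABARAPL2 and SQSTM1. By step, the median was highest for the ATG8 proteins at 30.3 TPM and lowest for the PI3K complex at 4.35 TPM. All 7 step medians were above the protein-coding median by TPM, by CPM and by transcript length. That of the PI3K complex was below the 8.52 TPM of detected protein-coding genes. The genes lay on 17 chromosomes, with 7 on chromosome 17.

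**Figure D1:**
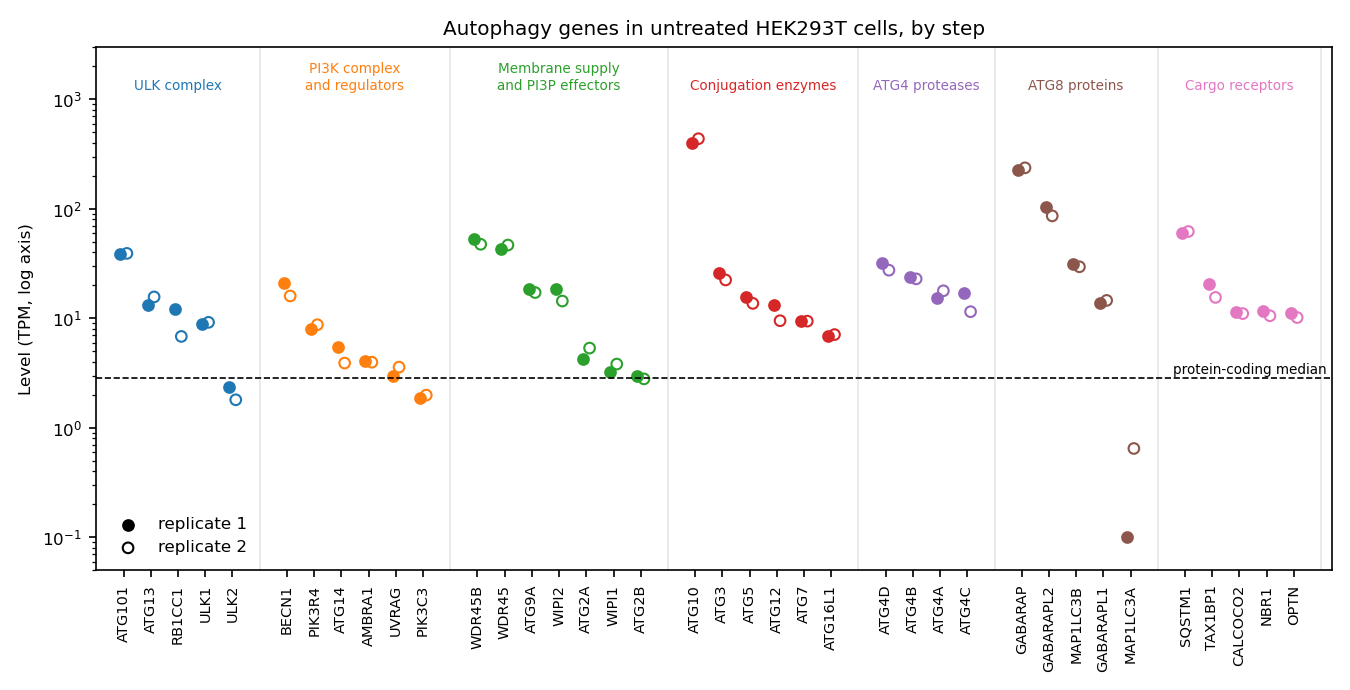
Level of each of the 38 autophagy genes in TPM (vertical log axis), grouped by step and ordered by mean within it; filled points are replicate 1, open points replicate 2, and the dashed line is the protein-coding median of 2.88 TPM. The ATG8 step spans the widest range, from MAP1LC3A at 0.373 TPM to GABARAP at 232 TPM, and ATG10 at 419 TPM stands above the other conjugation enzymes.

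The ATG8 proteins are small ubiquitin-like proteins whose processed end is joined to a membrane lipid. Their transcripts are shown first because some of these genes resemble each other closely enough for a read to be placed on the wrong one. The 90 bases at the 3′ end of each coding sequence, which encode the end that ATG4 proteases trim, are given 5′ to 3′ from GENCODE 29 transcripts on GRCh38. Capitals mark bases that differ from the first sequence of each set. The first set compares MAP1LC3B on chromosome 16 with its copy MAP1LC3B2 on chromosome 12.
MAP1LC3B: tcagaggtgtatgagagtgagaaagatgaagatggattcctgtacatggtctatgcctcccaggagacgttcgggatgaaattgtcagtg
MAP1LC3B2: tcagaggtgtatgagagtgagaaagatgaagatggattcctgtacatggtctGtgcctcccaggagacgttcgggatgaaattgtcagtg
The second set compares GABARAPL1 on chromosome 12 with GABARAP on chromosome 17 and GABARAPL2 on chromosome 16.
GABARAPL1: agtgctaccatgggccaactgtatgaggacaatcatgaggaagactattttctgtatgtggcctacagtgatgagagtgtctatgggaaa
GABARAP: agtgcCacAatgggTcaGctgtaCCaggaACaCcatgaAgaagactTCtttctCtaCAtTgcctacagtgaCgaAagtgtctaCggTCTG
GABARAPL2: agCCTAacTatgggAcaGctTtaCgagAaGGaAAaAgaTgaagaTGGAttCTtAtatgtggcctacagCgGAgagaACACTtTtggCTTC

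Over the whole coding sequence, MAP1LC3B and MAP1LC3B2 differed at 2 of 375 bases and shared an identical run of 307 bases. MAP1LC3B had 1367 counts in replicate 1 and 1397 in replicate 2, and MAP1LC3B2 had 25 and 8. With sequences this close, the counts of the pair are uncertain, and how reads were divided between them was not tested. The other ATG8 genes are further apart: GABARAP and GABARAPL1 were identical at 76.6% of aligned coding bases, with no shared run longer than 14, and MAP1LC3A and MAP1LC3B at 74.6%. GABARAPL1 was identical to its close copy GABARAPL3 at 95.4% of bases, and GABARAPL3 had 0 counts in both libraries.

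The GABARAP branch held most of the ATG8 transcripts. GABARAP had 3877 and 4334 counts, at 232 ± 6.12 TPM, and made up 62.5% ± 2.72 of the step's TPM. GABARAPL2 had 2716 and 2433 counts, at 94.8 ± 12.3 TPM, a share of 25.5% ± 2.87. MAP1LC3B, the LC3 form most used as a marker of autophagosomes, stood at 30.3 ± 1.12 TPM, a share of 8.15% ± 0.162. GABARAPL1 had 489 and 554 counts, at 14.2 ± 0.508 TPM. These 4 did not overlap between neighbours in this order. MAP1LC3A, another LC3 form, had 1 count in replicate 1 and 7 in replicate 2, which is 0.0555 CPM (exact 95% interval 0.00141 to 0.309) and 0.377 CPM (0.152 to 0.777). The log2 ratio of replicate 1 over replicate 2 had a 95% interval of -8.29 to 0.167, for counting error only. That interval just takes in equal levels, so a difference between the libraries was not resolved at this depth. MAP1LC3C, outside the 38 genes, was as scarce, with 7 and 6 counts.

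The place of GABARAP above GABARAPL2 depended on the length used. By merged exon length GABARAPL2 was lower by a log2 difference of -1.30 ± 0.226. By the longest coding transcript, GABARAPL2 was at 198 TPM and GABARAP at 193 TPM, a log2 difference of 0.03 ± 0.226 whose sign differed between the libraries. GABARAP, at chr17:7240008-7242449 on the minus strand, has 48.2% of its exonic bases in common with other genes. Its same-strand partner ENSG00000262526 had 4028 and 4553 counts, close to GABARAP's own, and an opposite-strand gene, ENSG00000279641, had 2353 and 2914. How many reads were counted for more than 1 of these genes was not tested.

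**Figure D2:**
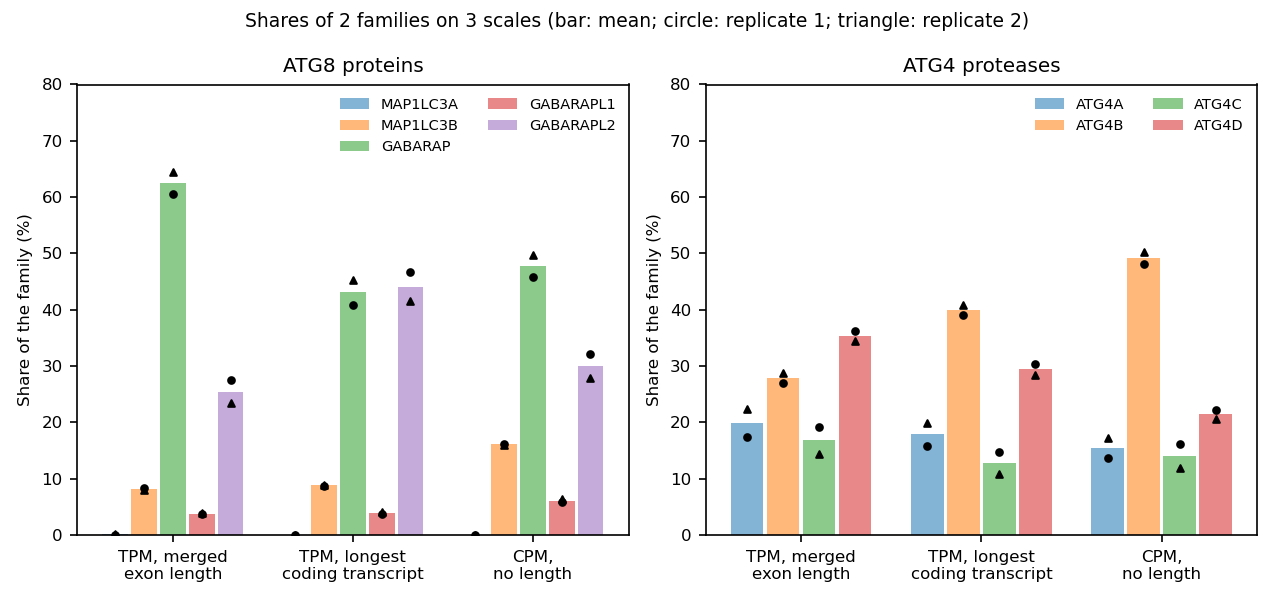
Share of each gene in its family (vertical axis, %) for the ATG8 proteins at left and the ATG4 proteases at right, on 3 scales; bars are means, circles replicate 1 and triangles replicate 2. GABARAP leads with 62.5% by merged exon length and equals GABARAPL2 within the spread by transcript length, and ATG4D leads the proteases by merged length and ATG4B on the other scales.

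The ULK complex, which starts autophagosome formation when nutrients are short, had a median of 9.51 TPM over 5 genes and summed to 193 CPM in replicate 1 and 189 CPM in replicate 2. Of its kinases, ULK1 had 583 and 657 counts, at 8.97 ± 0.288 TPM. ULK2 had 202 and 167 counts, at 2.07 ± 0.386 TPM. ULK1 was thus above ULK2 in both libraries, by 2.07 ± 0.303 log2, and on every length scale. RB1CC1, the large scaffold also called FIP200, had 810 counts in replicate 1 and 488 in replicate 2, or 12.2 and 6.82 TPM. The range of RB1CC1 takes in both values of ULK1, so their order is unsettled. ATG13, the adaptor that links the kinase to the scaffold, had 807 and 1030 counts, at 14.4 ± 1.73 TPM. ATG101, which stabilises ATG13, had 1080 and 1174 counts, at 38.9 ± 0.256 TPM, the highest of the complex. ATG101 shares 19.2% of its exonic bases with ENSG00000257663 on the opposite strand, which had 435 and 403 counts, so its level is uncertain. ULK3, a related kinase outside the 38 genes, stood at 66.8 ± 3.41 TPM, above ULK1 in both libraries.

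The class III PI3-kinase complex makes the lipid PI3P on the young membrane. Its 6 genes had the lowest median of the steps, 4.35 TPM, and summed to 139 CPM in replicate 1 and 129 CPM in replicate 2. PIK3C3, the lipid kinase itself, had 248 and 283 counts, at 1.93 ± 0.0789 TPM, the lowest of the 6. It has the longest merged exons of the 38 genes at 15170 bases, and by its longest coding transcript of 9443 bases it stood at 2.16 TPM. PIK3R4, its regulatory subunit, had 373 and 441 counts, at 8.34 ± 0.55 TPM. BECN1, the core subunit that partners bind, had 1173 and 963 counts, at 18.5 ± 3.52 TPM, the highest of the 6. BECN1 shares 12.4% of its exonic bases with CNTD1 and 4.68% with PSME3, both on the opposite strand, and PSME3 had more counts than BECN1, 1918 and 2065.

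ATG14 and UVRAG define alternative forms of this complex, the first acting in autophagosome formation and the second in later endosomal steps. ATG14 had 240 and 184 counts, at 4.69 ± 1.12 TPM, and UVRAG had 192 and 247 counts, at 3.29 ± 0.412 TPM. ATG14 was higher by 0.48 ± 0.515 log2 by merged length. That difference was within its SD, and its sign turned by transcript length (-0.25) and by CPM (-0.05). ATG14 also shares 20.8% of its exonic bases with FBXO34 on the opposite strand, which had 502 and 483 counts. AMBRA1, a regulator that binds BECN1, had 272 and 286 counts, at 4.02 ± 0.0681 TPM, inside the range of ATG14.

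The genes that supply membrane and bind PI3P had a median of 16.4 TPM over 7 genes and summed to 352 CPM in replicate 1 and 350 CPM in replicate 2. ATG9A, a membrane protein that moves lipids between the leaflets of vesicles, had 757 and 762 counts, at 17.8 ± 0.849 TPM. It shares 38.8% of its exonic bases with ENSG00000284820 on the same strand, which had 745 and 716 counts. ATG2A and ATG2B, which carry lipids from other membranes, were among the lower genes. ATG2A had 289 and 393 counts, at 4.79 ± 0.786 TPM, and ATG2B had 368 and 374 counts, at 2.88 ± 0.118 TPM. ATG2A was higher per length by 0.71 ± 0.29 log2, while its counts were lower than those of ATG2B in replicate 1 and higher in replicate 2.

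The PI3P-binding WIPI family was led by WDR45B and WDR45, also called WIPI3 and WIPI4. WDR45B had 1619 and 1576 counts, at 49.9 ± 3.56 TPM, or 43.5% ± 1.8 of the family. WDR45, on the X chromosome, had 1757 and 2055 counts, at 44.8 ± 2.61 TPM, or 39.1% ± 3.45. Their difference of 0.15 ± 0.187 log2 was within its SD, and by transcript length WDR45 was the higher, with -0.82 for WDR45B over WDR45. WIPI2, which recruits ATG16L1 to the membrane, had 1446 and 1212 counts, at 16.4 ± 2.89 TPM. WIPI1 had 96 and 122 counts, at 3.53 ± 0.412 TPM. WIPI2 was above WIPI1 by 2.18 ± 0.418 log2 and on every length scale. WIPI1 shares 28.1% of its exonic bases with opposite-strand genes, of which ENSG00000267009 had 312 and 398 counts. WDR45 shares 14.4% with a same-strand gene, ENSG00000288053, at 1631 and 1856 counts.

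The conjugation enzymes had a median of 13.1 TPM over 6 genes and summed to 1298 CPM in replicate 1 and 1415 CPM in replicate 2, most of it from ATG10. Without ATG10 the sums were 238 and 215 CPM. ATG7, the E1-like enzyme that activates both ATG12 and the ATG8 proteins, had 734 and 781 counts, at 9.47 ± 0.081 TPM. ATG3, the E2-like enzyme for ATG8 proteins, had 1373 and 1284 counts, at 24.1 ± 2.4 TPM. ATG12, the ubiquitin-like protein joined to ATG5, had 1030 and 791 counts, at 11.4 ± 2.7 TPM. ATG5 itself had 779 and 726 counts, at 14.7 ± 1.5 TPM. ATG16L1, which places the ATG12-ATG5 conjugate on the membrane, had 365 and 403 counts, at 7.01 ± 0.123 TPM. These 5 lay between 7.01 and 24.1 TPM, and ATG10 stood far above them. ATG7 shares 18.1% of its exonic bases with VGLL4 on the opposite strand, at 715 and 707 counts. ATG12 shares 2.09% of its exonic bases with AP3S1 on the opposite strand, which had 1176 and 943 counts.

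ATG10, the E2-like enzyme for ATG12, had 19097 and 22307 counts, at 419 ± 24.1 TPM, above 98.8% of protein-coding genes. ATG10 lies at chr5:81972023-82276857 on the plus strand. Its last annotated exon, chr5:82276145-82276857, shares 374 bases with the gene of ribosomal protein RPS23 on the minus strand. RPS23 had 24349 and 26402 counts, and the ATG10 count was 78.4% of it in replicate 1 and 84.5% in replicate 2. The shared stretch holds 232 of 429 coding bases of RPS23, or 54.1%. Of 9 ATG10 transcripts in GENCODE 29, 6 are coding. Those that overlap the shared stretch number 2, and 0 of them are coding. The RPS23 coding exon that lies whole inside an ATG10 exon, at chr5:82276398-82276518, is shown because reads from it can lie in exons of both genes. It is given in the sense of RPS23 from GENCODE 29.
RPS23 exon: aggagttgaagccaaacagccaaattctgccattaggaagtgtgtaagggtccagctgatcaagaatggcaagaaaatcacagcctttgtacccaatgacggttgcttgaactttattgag

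The share of the ATG10 count that came from RPS23 reads was not tested, and the ATG10 level is uncertain. Without ATG10, the step's log2 level against protein-coding genes was 1.94, against 2.14 with it, and that of the remaining 37 genes was 2.25. Across the 38 genes, 21 shared exonic bases with another gene, against 45.9% of protein-coding genes, and 3 shared 25% or more (GABARAP, ATG9A and WIPI1), against 11.2%. In all, 8 genes shared that much or had a partner with more counts than their own. The share of protein-coding genes under this joint rule was not computed. SQSTM1 shares 22.4% of its exonic bases with opposite-strand genes, of which MRNIP had 2550 and 2551 counts.

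**Figure D3:**
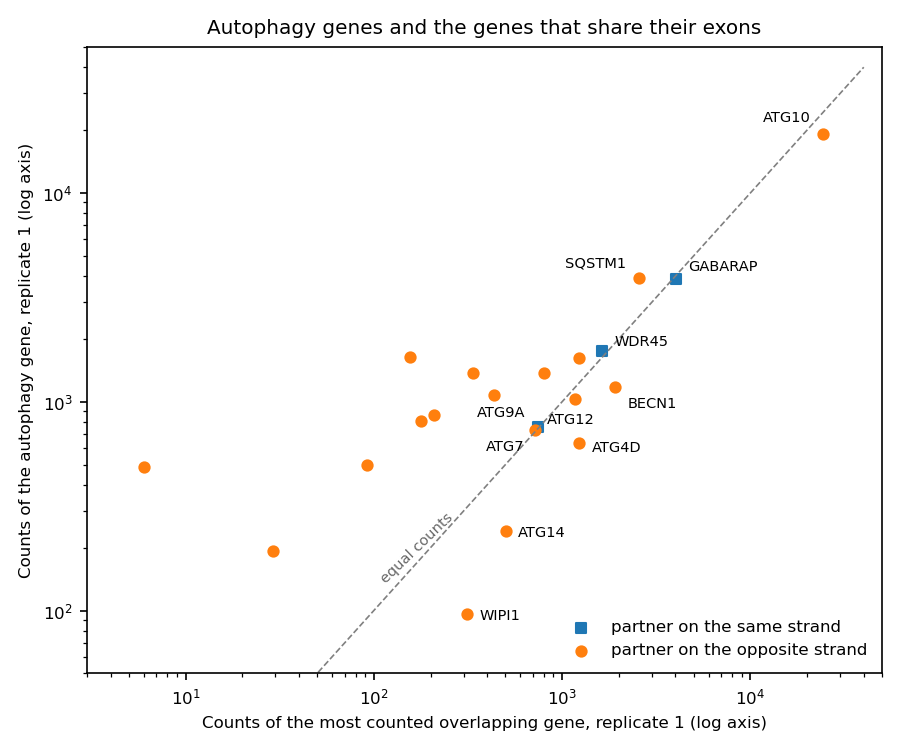
Counts in replicate 1 of the 21 autophagy genes whose exons overlap another gene (vertical log axis) against counts of the most counted overlapping gene (horizontal log axis); squares are same-strand and circles opposite-strand partners, and the dashed line marks equal counts. ATG10, at 19097 counts beside 24349 for RPS23, is far above the other autophagy genes, and GABARAP, ATG9A and WDR45 lie close to the line of their same-strand partners.

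The ATG4 proteases expose the end of ATG8 proteins before conjugation and release them from membranes. Their 4 genes were the most even step, from 14.2 to 29.7 TPM, with a median of 19.9 TPM and sums of 159 CPM in replicate 1 and 153 CPM in replicate 2. ATG4D had 633 and 588 counts, at 29.7 ± 3.1 TPM. ATG4B, the form with the broadest activity on ATG8 proteins, had 1377 and 1428 counts, at 23.3 ± 0.624 TPM. ATG4A, on the X chromosome, had 391 and 490 counts, at 16.6 ± 1.77 TPM, and ATG4C had 460 and 336 counts, at 14.2 ± 3.85 TPM. The ranges of ATG4A and ATG4C overlapped. ATG4D made up 35.4% ± 1.25 of the step by merged length, but by transcript length ATG4B led with 40.0% ± 1.22, and by CPM with 49.2% ± 1.5. ATG4D shares 14.7% of its exonic bases with KRI1 on the opposite strand, at 1233 and 1203 counts.

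The receptors for ubiquitin-marked cargo had a median of 11.2 TPM over 5 genes and summed to 430 CPM in replicate 1 and 426 CPM in replicate 2. SQSTM1, also called p62, had 3934 and 4388 counts, at 60.9 ± 1.51 TPM, the highest of the receptors on all 3 scales. NBR1, a related receptor that acts with p62, had 863 and 832 counts, at 11.2 ± 0.873 TPM. SQSTM1 was above NBR1 by 2.44 ± 0.148 log2. TAX1BP1 had 1629 and 1335 counts, at 17.9 ± 3.44 TPM. Its relative CALCOCO2, also called NDP52 and known for bacterial cargo and mitochondria, had 821 and 860 counts, at 11.2 ± 0.219 TPM. TAX1BP1 was above CALCOCO2 by 0.66 ± 0.249 log2. OPTN, a receptor for damaged mitochondria, had 496 and 490 counts, at 10.6 ± 0.647 TPM. The ranges of OPTN, NBR1 and CALCOCO2 overlapped.

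The libraries lay within 0.5 log2 of each other for most of the genes. Ratios are log2 of replicate 1 over replicate 2 and were read for the 37 genes whose counts averaged at least 50, beside 14704 genes in all. They have no replicate check, and their intervals cover counting error only. Past 0.5 log2, 1 gene was higher in replicate 1, against 8.84% of all genes, and 0 were higher in replicate 2, against 2.86%. Past 1 log2 in either direction were 0, against 2.06%. Within 0.25 log2 were 24 of the 37, and the share of all genes within it was not computed. The interval left out 0 for 17 genes, 8 higher in replicate 1 and 9 higher in replicate 2, a share close to the 46.9% of all genes. The gene past 0.5 was RB1CC1, at 0.74 (95% interval 0.58 to 0.91). Just inside that threshold lay ATG4C at 0.46 (0.26 to 0.67) and ATG2A at -0.43 (-0.65 to -0.21).

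GC content moved with these ratios. RB1CC1 has 37.6% GC in its longest coding transcript and ATG4C 34.8%, against 64.0% for ATG2A. Over the 37 genes, which share 1 pair of libraries, Pearson's r between GC content and ratio was -0.41 and Spearman's rho -0.31, and over 11974 genes they were -0.43 and -0.48. The 15 genes under 45% GC had a median ratio of 0.07, with 9 higher in replicate 1, and the 22 others a median of -0.09, with 7 higher in replicate 1. Over all 11974 genes the medians were 0.20 and -0.07, with 3395 of 4363 and 2814 of 7611 genes higher in replicate 1. After ratios were centred on GC content, RB1CC1 stood at 0.42 and no gene of the 37 passed 0.5 in either direction. Centring took PIK3C3, at 38.3% GC, from -0.175 to -0.498, the largest of the 37 in size and just inside that threshold. The share of all genes past 0.5 after centring was not computed. The part of GC content in single ratios was not tested further.

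**Figure D4:**
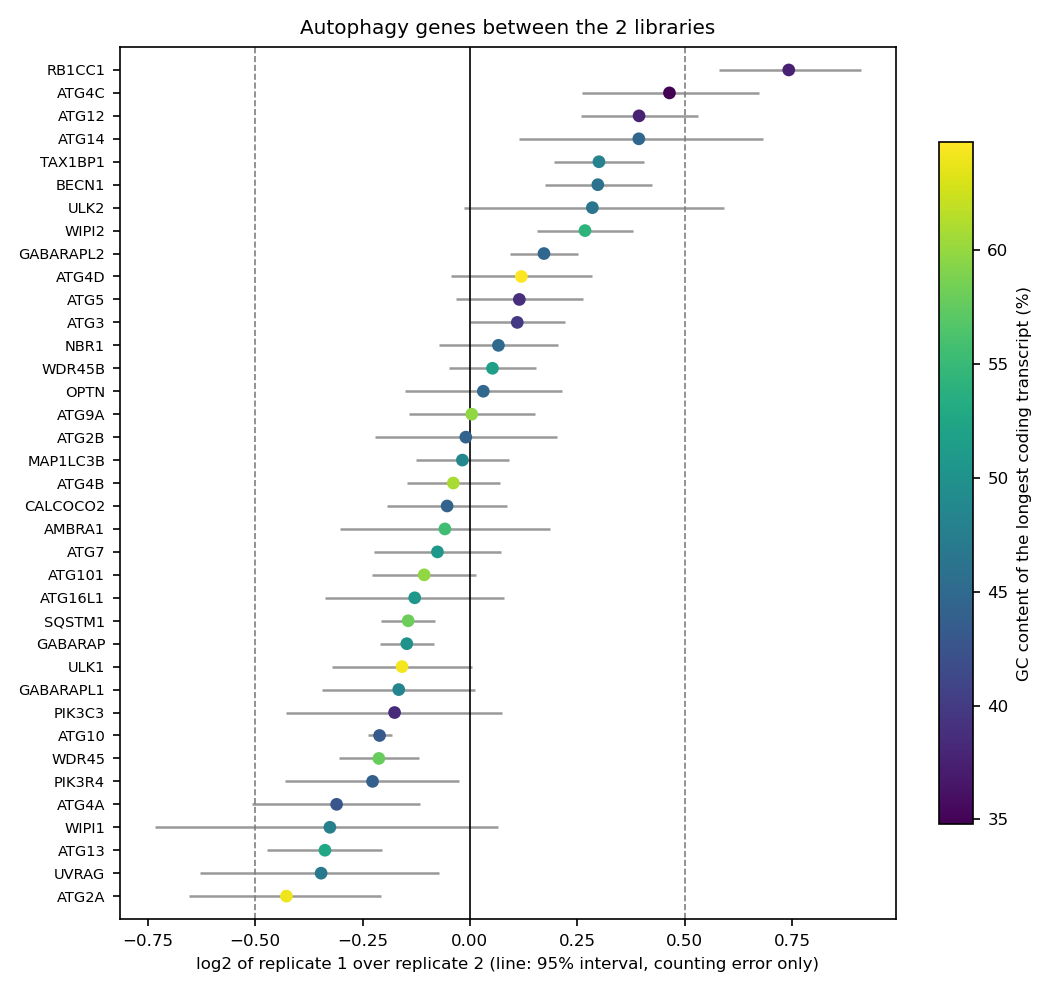
Log2 ratio of replicate 1 over replicate 2 for the 37 autophagy genes whose counts averaged at least 50 (horizontal axis), with 95% intervals for counting error and points coloured by the GC content of the longest coding transcript (%). RB1CC1 at 0.74 is the one point past the dashed lines at 0.5, and dark points of low GC content are more frequent at the top than at the bottom.

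Around the core machinery, 62 genes in 6 lists gave its setting, named here by TPM over merged exon length. Where the longest coding transcript turns an order or moves a named level by over 1.5 times, the transcript-length value follows. Of 12 upstream kinases and partners, 12 were detected, with a median of 6.16 TPM. MLST8, a subunit shared by both mTOR complexes, led at 64.0 ± 1.49 TPM, and at 104 TPM by transcript. PRKAG1, an AMPK subunit, followed at 23.9 ± 0.9 TPM, and at 40.9 TPM by transcript, but 61.8% of its exonic bases also lie in exons of other genes, so its level is uncertain. TBK1, which phosphorylates cargo receptors, was lowest at 3.38 ± 0.0459 TPM, beside RPTOR, the scaffold of mTORC1, at 3.43 ± 0.187 TPM. By transcript length TBK1 stood at 10.6 TPM, above RPTOR at 3.84 TPM, and SMCR8 was lowest at 3.21 TPM. Of 10 early membrane and PI3-kinase accessory genes, 10 were detected, with a median of 2.95 TPM. NRBF2, a partner of ATG14, stood at 25.8 ± 6.2 TPM and VMP1, a lipid scramblase of the endoplasmic reticulum, at 19.8 ± 1.69 TPM. Their order turned by transcript length, with NRBF2 at 18.4 TPM and VMP1 at 34.9 TPM. ATG9B, the relative of ATG9A, stood at 0.623 ± 0.0326 TPM and RUBCNL at 0.221 ± 0.0473 TPM, while by transcript length they were at 0.611 and 0.616 TPM.

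Of 6 further genes, most of them paralogues of the 38, 3 were detected. After ULK3 the next was ATG16L2 at 5.18 ± 0.205 TPM (13.7 TPM by transcript length), while BECN2, the relative of BECN1, had 0 counts and MAP1LC3C stood at 0.597 ± 0.096 TPM. Of 13 receptors for organelles and other cargo, 13 were detected, with a median of 18.9 TPM. FKBP8, a mitochondrial outer membrane protein that binds ATG8 proteins, stood at 226 ± 15.4 TPM and PHB2, a mitochondrial inner membrane protein, at 215 ± 11.9 TPM. By transcript length PHB2 was the higher, with 240 TPM for FKBP8 and 418 TPM for PHB2. The means of both exceeded that of SQSTM1 on either length. RETREG1 and CCPG1, receptors for the endoplasmic reticulum, were the lowest by merged length, at 1.02 ± 0.084 and 4.30 ± 1.55 TPM. By transcript length RETREG1 stood at 3.37 TPM and STBD1, a glycogen receptor, was lowest at 2.95 TPM. By merged length STBD1 stood at 6.45 TPM, and its transcript of 3420 bases is longer than its merged exons of 2244 bases. Of the exonic bases of STBD1, 88.5% also lie in exons of other genes, so its level is uncertain. Other receptors for the endoplasmic reticulum were higher by merged length, TEX264 at 38.1 ± 0.419 TPM (65.9 TPM by transcript length) and SEC62 at 16.6 ± 3.99 TPM. For CCPG1, 40.0% of exonic bases also lie in exons of other genes, so its level is uncertain.

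Of 15 genes for fusion with lysosomes, 15 were detected, with a median of 15.3 TPM. VAMP8, a SNARE of the lysosomal side, stood at 89.8 ± 16.7 TPM and the GTPase RAB7A at 39.7 ± 0.147 TPM. Their order turned by transcript length, with VAMP8 at 69.6 TPM and RAB7A at 88.6 TPM. STX17, the SNARE of the autophagosome, stood at 3.46 ± 0.181 TPM (7.92 TPM by transcript length) and the adaptor PLEKHM1 at 1.71 ± 0.164 TPM. Of 6 transcription factors that act on autophagy and lysosome genes, 5 were detected. TFE3 stood at 10.3 ± 1.5 TPM and FOXO3 at 7.10 ± 1.86 TPM, in the same order by transcript length. By CPM their order differed between the libraries. TFE3 was at 18.8 and FOXO3 at 31.3 in replicate 1, and 24.1 and 22.4 in replicate 2. MITF stood at 1.13 ± 0.288 TPM and TFEC had 0 counts.

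TFE3 and its relatives bind the E-box CACGTG, which reads the same on both strands. In RefSeq promoters on GRCh38, from 250 bases before to 50 after the gene start, it was present in 2 of the 33 autophagy genes that matched, ATG3 and ATG14, against 8.78% of 27305 genes. A match in this window is a description of its letters alone.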

How the data were processed

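Total RNA was taken with TRIzol and treated with DNase I, and oligo(dT)-primed cDNA was sheared and ligated as single strands to make the libraries, per the labels' protocols. The authors deposited raw counts per gene, 1 library per file, with no normalisation, per the file headers. Demultiplexing software bcl2fastq 2.17, the trimmer Trim Galore 0.6.7, the read counter featureCounts 2.0.3 and build GRCh38 stand in the submitters' processing notes. Sources used here do not give the aligner, the annotation release or how strand and overlaps were handled in counting. In 811 pairs of genes on opposite strands, the inner gene lies wholly inside exons of the outer one. Of the 519 pairs whose inner gene had counts in replicate 1, that gene had more counts than the outer one in 0, so genes that overlap others on either strand are called uncertain.

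CPM and TPM were computed here from the counts, their totals and the deposited merged exon lengths. Medians are over libraries' means. The log2 levels used a pseudocount of 0.1. Gene types and transcripts came from GENCODE 29 on GRCh38, which typed 58396 of the IDs, and 60463 IDs matched a symbol. Ratios used edgeR 4.0.16 with TMM factors of 1.01 and 0.989 and a prior count of 2, in R 4.3.3. DESeq2 1.42.0 size factors, 1 and 1, were an alternative. Overlaps used bedtools 2.31.1. The level and ratio steps were tested on simulated data.

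With 1 group of 2 libraries, no test was run. The members, lists and pairs were chosen with earlier results of these data known. Of the other lists, the 2 highest and 2 lowest genes by mean TPM are named. Cell markers are given as counts and ranges, and those named there, like MAP1LC3B2, GABARAPL3 and the overlapping genes, were chosen after their values were seen. SMCR8, STBD1, TEX264 and SEC62 were likewise named after their values were seen. The alternatives without ATG10 and without the overlapping genes were also chosen after seeing the data. The result of 1 marker list is not reported here.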

Additional observations from a re-analysis of the deposited data

How the results depend on the processing

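The number of detected genes was 37 at 0.5, 1 and 5 CPM, at 1 TPM and in each library alone. The log2 level of the 38 genes above protein-coding genes was 2.26, and stayed so by CPM. It was 2.39 by the longest coding transcript, 2.44 without genes sharing 25% or more of their exonic bases, 1.97 with a pseudocount of 1 and 0.742 against detected genes alone. With 1 replicate left out it was 2.11 to 2.20. All 7 step medians stayed above that of protein-coding genes under each alternative run, none of which set the steps against detected genes alone. Of 12 pairs, the first gene was higher in 10 by merged length, 7 by CPM and 9 by transcript length. Which gene is first is a matter of listing, so this tally only tracks change between scales. The pairs that turned by CPM were ATG2A over ATG2B (-0.138), WDR45B over WDR45 (-0.25) and ATG14 over UVRAG (-0.0509). By transcript length WDR45B over WDR45 (-0.817), ATG14 over UVRAG (-0.246) and GABARAPL2 over GABARAP (0.0323) turned, by the lengths' own construction. On both scales the sign of ATG14 over UVRAG differed between the libraries. So did that of ATG2A over ATG2B by CPM and of GABARAPL2 over GABARAP by transcript length. The count past 0.5 log2 higher in replicate 1 was 1, and 0 when centred on GC content. Higher in replicate 2 it was 0, and 1 with no filter on low counts, where MAP1LC3A enters with 1 and 7 counts. No paired analysis was possible because the samples form 1 group. Depth limits MAP1LC3A, MAP1LC3C and BECN2, and with 2 libraries the SDs are themselves poorly known.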
